A study of Mus musculus with 12 samples.

Results

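The nuclear genes for the subunits of oxidative phosphorylation were followed in pituitary RNA from 12 female C57BL/6J mice aged 2 months. The members are all array features that are not controls and whose gene name starts with Nduf followed by a, b, c, s or v and a number, is Sdha to Sdhd, or starts with Uqcr, Cox4 to Cox8 or Atp5. That rule matched 128 features of 85 genes among 39429 features. A gene was kept if 4 or more of the 12 channels read one of its features well above the local background, as was the case for 84 of the 85 genes and not for Cox8c, a testis isoform. Cox4nb, Atp5s and Atp5sl match by name but do not encode subunits, so 81 subunit genes remained among 19090 genes in the fit. By complex they were 35 genes of complex I, 4 of complex II, 8 of complex III, 19 of complex IV and 15 of complex V, with Ndufa4 and Ndufa4l2 counted in complex IV, where present knowledge places them.

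The respiratory chain of the inner mitochondrial membrane passes electrons from NADH (complex I) or succinate (complex II) through ubiquinone to complex III, cytochrome c and complex IV, which reduces oxygen. Complexes I, III and IV pump protons, and complex V, the ATP synthase, makes ATP as the protons return. Most subunits are encoded in the nucleus and a smaller set in the mitochondrial genome, and several complex IV subunits have isoforms that differ between tissues. In an endocrine gland the pathway supplies the ATP that hormone synthesis and secretion use.

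The control group ate a normal diet, the early life group a vitamin D-deficient diet in early life only, and the peripubertal group the deficient diet around puberty only, with 4 animals per group that the labels call biological replicates. The labels give no other difference between the groups, and the pituitaries were removed and minced before RNA was extracted. Each of the 6 Agilent 2-colour arrays carried 2 animals of 1 group, the odd-numbered animal in Cy3 and the even-numbered in Cy5. Both control arrays lay on 1 slide and the other 4 on another, and the scan date split the arrays in the same way. Diet, slide and scan date therefore cannot be told apart wherever control is one side. The files also disagree on which deficient group is which: each of the 8 deficient-group columns of the authors' value table equals a channel scanned under the other deficient group in 100% of its values, and its 4 control columns equal any scanned channel in at most 0.0399% of theirs. Names here follow the scanner files, so under the table's assignment the names early life and peripubertal would change places in every value below. The gland's own markers were present, with all 4 somatotroph, 3 lactotroph, 4 gonadotroph, 3 thyrotroph and 5 corticotroph and melanotroph markers kept. Signals well above background made up 49.4% to 66.3% of features per channel. Precision is limited by how few arrays there are.

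The array reads each gene through 60-base oligonucleotides, and 28 of the 81 subunit genes had more than 1 kept feature, the brightest of which stood for the gene. Stretches of 30 bases of those features are given 5′ to 3′ for the genes on which the results turn. The 2 Cox5b features overlap by 36 bases, of which 35 are equal, and the capital marks the base that differs. The capitals in Atp5g1 mark a run that also occurs in features of other genes.
Cox5b, first feature, chr1:36750171-36750230, mm9, plus strand: ctctaataaagaTtagccattgcactggct
Cox5b, second feature, chr15:100805467-100805526, mm9, plus strand: ctctaataaagaCtagccattgcactggct
Atp5g1, first feature, chr11:95934315-95934374, mm9, minus strand: tttaccattAAACAACAACAACAACAACAA
Atp5g1, second feature, chr11:95930317-95930376, mm9, minus strand: tttcaattattaaaagctttaagggctggc
Cox6a2, chr7:135349160-135349219, mm9, minus strand: agcaatcttcaaattggccttctgcacacc
Ndufc2, chr7:104556135-104556194, mm9, plus strand: aaacctatgctgaaattcttgagccattct
Ndufs1, chr1:63190360-63190419, mm9, minus strand: ccgtccatatgctgagacatctaacaggga
Ndufs4, chr13:115078980-115079039, mm9, minus strand: aaacccaagtccaagtcttatggtgcaaac
The first Cox5b stretch holds bases 25 to 54 of its feature and the second bases 1 to 30, the first Atp5g1 stretch holds bases 31 to 60, and the others hold bases 1 to 30. Of the 81 features that stand for a subunit gene, 10 (12.3%) share a run of 20 bases with a feature of another gene on either strand, beside 9.26% of all 19090. In 80 of the 81 the file places the feature on the chromosome where RefSeq has the gene. The exception is Atp5k, placed on Y in the file and on chromosome 5 in RefSeq (GRCm38.p6), and the second Cox5b feature likewise lies on chromosome 15 while the gene lies on chromosome 1.

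The subunit genes were bright and strongly detected, with 78 of 81 well above background in all 12 channels and none saturated. They also lost many values, because the scanner software marks uneven spots as outliers and such spots were left out for both animals of the array. On the control arrays 6.67% of the spots of subunit genes were marked on each array. On the early life arrays the share was 30% and 32.2%, and on the peripubertal arrays 22.2% and 15.6%. All spots together were marked in 1.68% to 1.90%, 6.54% to 7.34% and 3.85% to 5.08%. Other spots of the same brightness (between the members' lower and upper quartile on that array) were marked in like shares, at 9.50% and 8.27%, 28.0% and 30.6%, and 23.4% and 15.4%. Only 29 of the 81 subunit genes therefore had a value in all 12 samples. Where a difference below comes without the animals' values and a pair of animals is missing, n is given for both groups in the order of the difference.

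**Figure D1:**
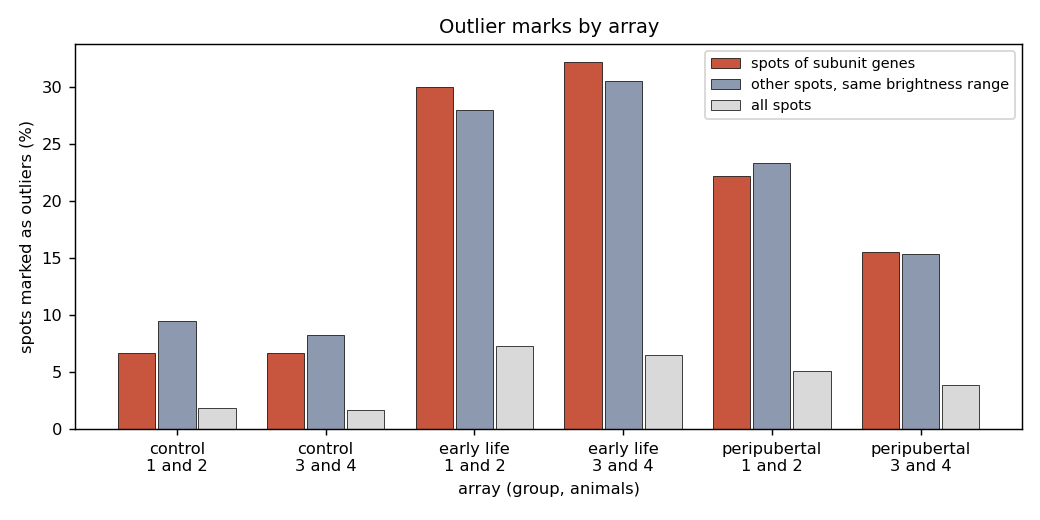
Percent of spots marked as outliers on each of the 6 arrays, for spots of subunit genes, other spots in the same brightness range and all spots. The marks of subunit genes run from 6.67% on control arrays to 32.2% on an early life array, close to those of equally bright spots.

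No subunit gene passed the test in any comparison (limma, Benjamini-Hochberg adjustment over all genes tested, threshold 0.05). In early life against control 71 subunit genes could be tested, 43 were higher and 28 lower, and the smallest adjusted p was 0.149. That comparison called 0.0979% of all 18387 genes tested. Without adjustment 5 of the 71 were higher and 0 lower at p under 0.05, against 16.2% of all genes in either direction. In peripubertal against control 39 of 77 were higher and 38 lower, with all adjusted p at 1.00, 1 gene in each direction at unadjusted p under 0.05 (the lower one, Cox7b2, passed the filter only with its control channels), and a background of 0.0213% called and 4.69% at unadjusted p under 0.05. Early life against peripubertal, whose arrays shared a slide, gave 42 higher and 25 lower of 67, 5 and 0 at unadjusted p under 0.05, and a smallest adjusted p of 0.115, with 0.132% of all genes called and 19.4% at unadjusted p under 0.05. The shares of members at unadjusted p under 0.05 were below those of all genes in all 3 comparisons. Taking the mean of a gene's kept features, not the brightest, called 3 of the 81 subunit genes in early life against control and 3 against peripubertal animals. Of all 19090 genes in the fit that setting called 125 and 151. Removing the marked spots before scaling between arrays, a choice made after seeing the data, called 15 and 1 of the 81. Of the 19090 genes 3058 and 315 were then called. No result about the members is drawn from these counts. The Cy5 against Cy3 term of the same fit called no subunit gene and 0.0525% of all genes, with 5 members brighter in Cy5 and 2 in Cy3 at unadjusted p under 0.05.

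The subunit genes as a set centred near 0. Their median log2 difference was 0.069 in early life against control, 0.0035 in peripubertal against control and 0.10 in early life against peripubertal, where all genes gave 0.027, 0.0069 and 0.033 and genes between the members' 10th and 90th percentile of brightness 0.052, 0.024 and 0.045. Centring each channel on its median instead gave 0.38 and 0.20 for the members against control, in early life and peripubertal animals. All genes then gave 0.17 and 0.14. By complex the medians of early life against control were 0.054 for complex I, -0.031 for II, 0.13 for III, 0.18 for IV and -0.046 for V. In peripubertal against control they were -0.040, -0.064, 0.071, 0.048 and -0.019. Because glands were measured whole, fewer cells of a type and less RNA per cell cannot be told apart in any of these values.

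**Figure D2:**
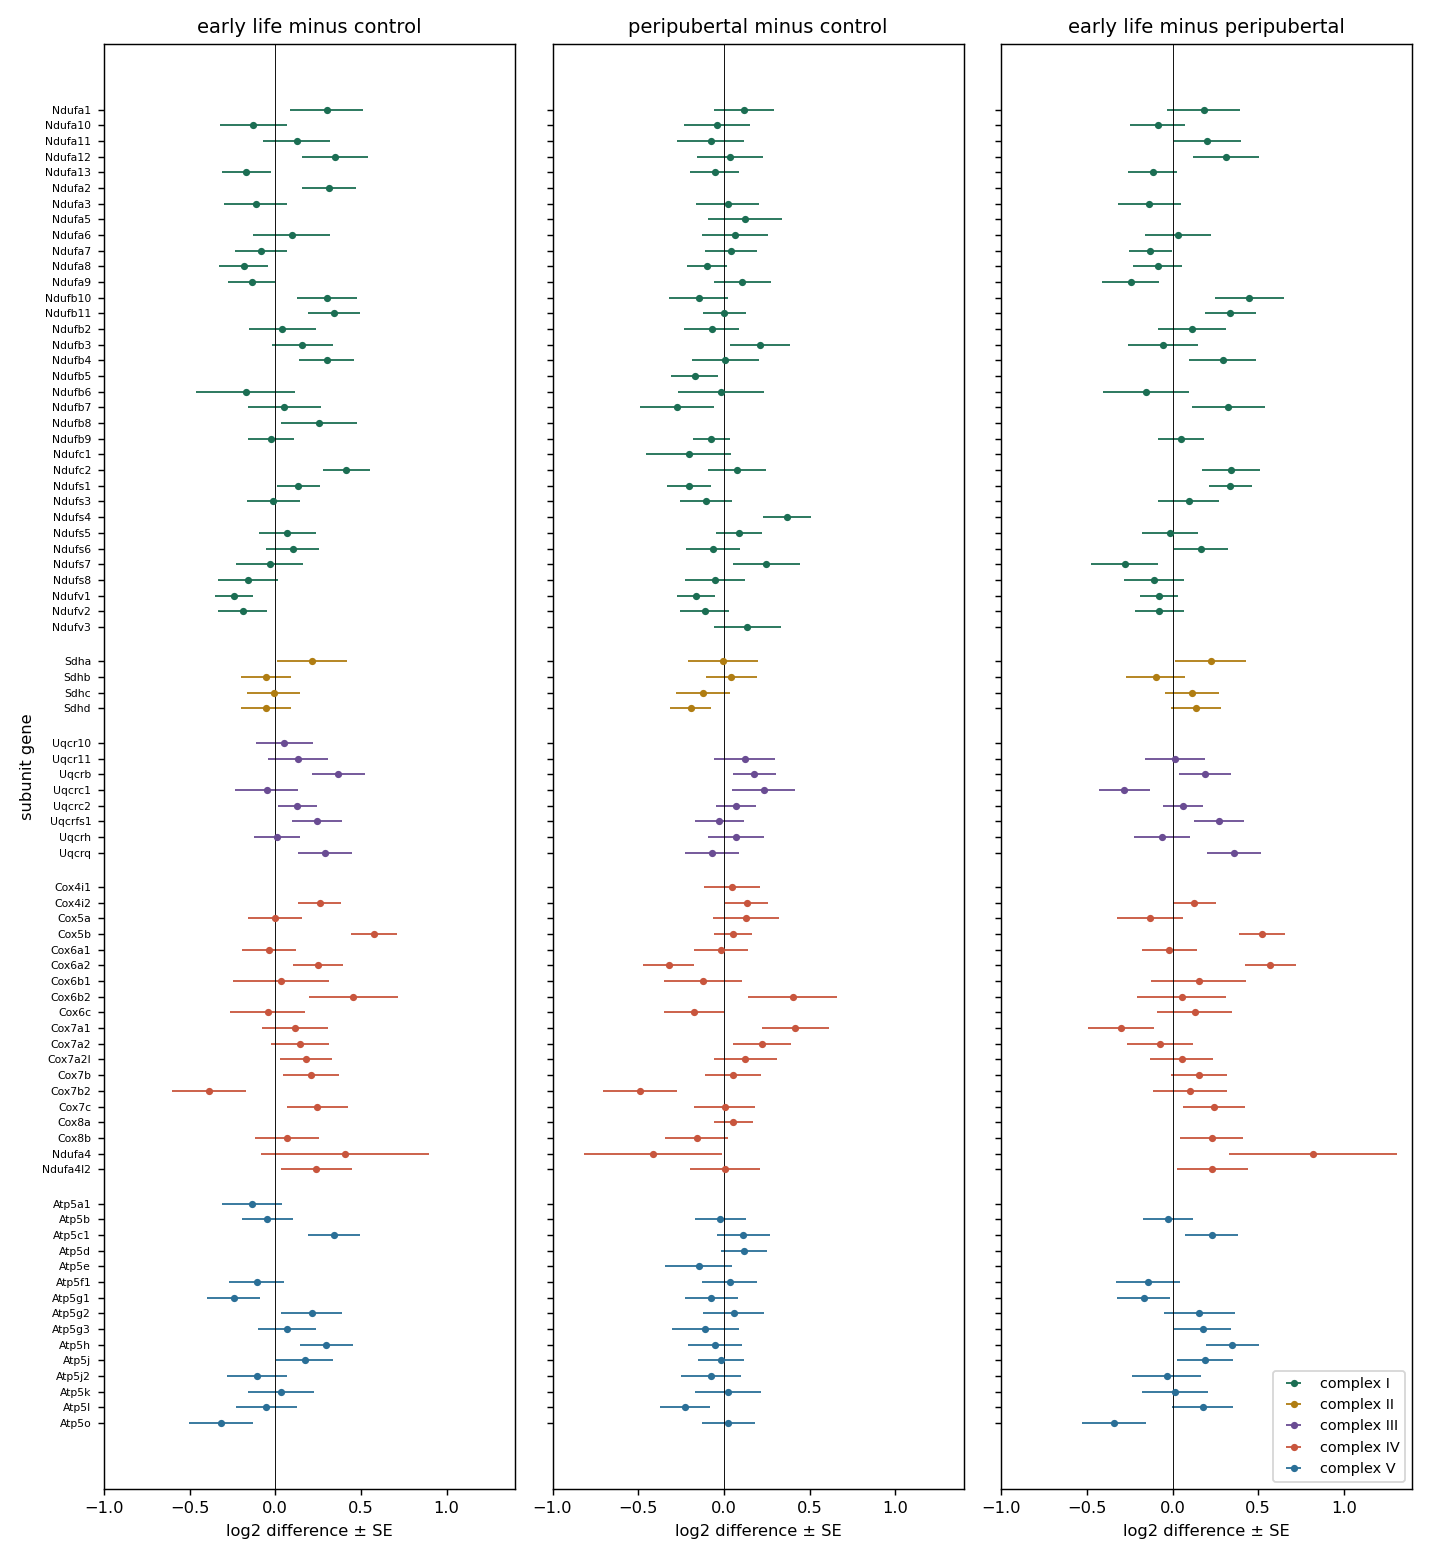
Fitted log2 difference of the subunit genes named on the axis, with standard errors, in the 3 comparisons, grouped by complex; a missing point could not be estimated. The points scatter on both sides of 0, with medians over all subunit genes tested of 0.069, 0.0035 and 0.10.

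The animals of the early life group split by array. Over the 29 genes with all values, the median deviation from each gene's mean was 0.22 and 0.18 in early life animals 1 and 2 and -0.091 and -0.11 in animals 3 and 4. Control animals lay at 0.022, 0.0016, -0.18 and 0.095, and peripubertal animals at -0.13, -0.0044, -0.076 and 0.018. Early life animals 1 and 2 lay above all others, and animals 3 and 4 lay within the range of the other groups. Of 42 subunit genes with all 4 early life values, 37 (88.1%) were higher on the array of animals 1 and 2, with a median gap of 0.31, beside 55.9% and 0.051 over all genes and 62.5% and 0.11 over genes of like brightness. In control 39 of 70 (55.7%) and in peripubertal samples 18 of 55 (32.7%) were higher on the array of animals 1 and 2. Leaving out the array of early life animals 1 and 2 turned the median of early life against control to -0.033 and that of early life against peripubertal to -0.032. Leaving out the array of animals 3 and 4 raised them to 0.22 and 0.16, with early life then resting on 1 array. Of the 81 subunit genes 4 then passed against control (Ndufb4, Cox5b, Cox7c and Atp5h). Against peripubertal samples 6 passed (Ndufb4, Uqcrq, Cox5b, Cox6a2, Cox7c and Atp5h). Of all 19090 genes in the fit 1931 and 2377 passed in the same comparisons, so no result about the members is drawn from these counts. The subunit genes are named because they passed there.

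**Figure D3:**
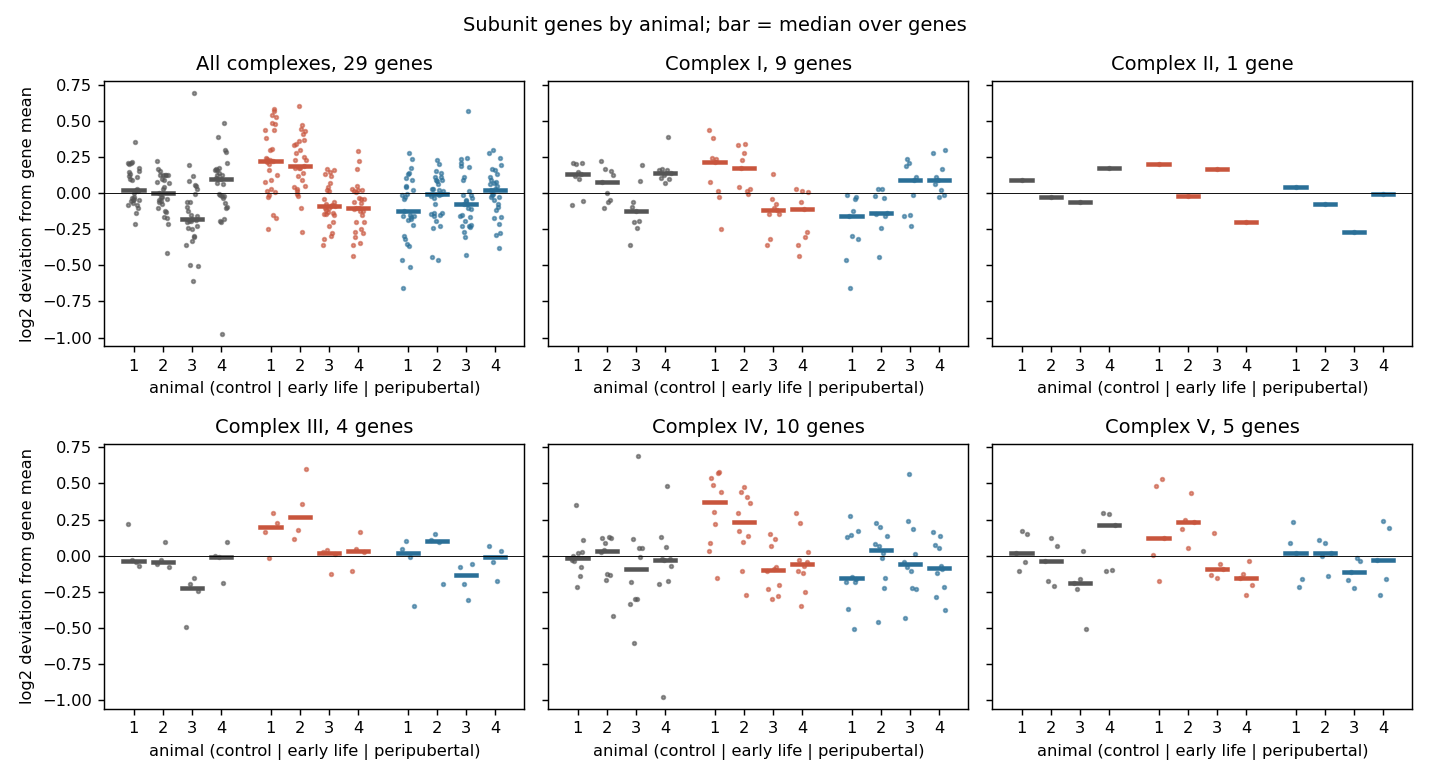
Deviation of each subunit gene from its own mean over the 12 samples (log2), for the 29 genes with all values, by animal; bars are medians over genes. Early life animals 1 and 2 lie high at 0.22 and 0.18 and animals 3 and 4 low at -0.091 and -0.11.

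Complex I takes electrons from NADH, and its core subunits carry the flavin and the iron-sulfur clusters. Ndufc2, an accessory subunit of the membrane arm, gave log2 intensities of 14.26, 14.60, 14.46 and 14.28 in early life and 13.95, 13.94, 14.05 and 14.01 in control animals. Every early life value was above every control value. The difference of 0.41 ± 0.14 (log2, SE) did not pass (adjusted p = 0.224). In the 2 peripubertal animals measured Ndufc2 stood at 14.04 and 14.09. Ndufs1, the largest core subunit and a carrier of iron-sulfur clusters, read 14.18, 14.24, 14.10 and 13.98 in early life, 13.67, 13.72, 13.81 and 13.94 in peripubertal and 14.11, 13.97, 13.84 and 14.03 in control animals. The lowest early life value was above the highest peripubertal one, and the control values overlapped with both. Its difference between the deficient groups was 0.34 ± 0.13 (adjusted p = 0.191), and peripubertal minus control was -0.20 ± 0.13 (adjusted p = 1.00), which median centring turned to 0.019. Ndufs4, an accessory subunit needed for assembly of the NADH-binding module, was 12.87, 12.95, 12.94 and 13.00 in peripubertal and 12.27, 12.63, 12.63 and 12.76 in control animals, and both early life arrays had its spot marked. The peripubertal values all lay above control, by 0.37 ± 0.14 (adjusted p = 1.00). Ndufb11, a membrane-arm accessory subunit, had 14.84 and 14.65 in early life animals 1 and 2 and 14.45, 14.38, 14.45 and 14.33 in control. The difference was 0.34 ± 0.15 (adjusted p = 0.308). With marked spots kept, early life animals 3 and 4 read 14.35 and 14.29, and the difference was 0.13.

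Among the core subunits of complex I, 5 of the 6 testable were lower in early life than in control and 6 of 7 lower in peripubertal animals, with medians of -0.095 and -0.11. Ndufv1, which binds NADH and the flavin, was 14.23, 14.25, 14.14 and 13.99 in early life and 14.47, 14.41, 14.34 and 14.35 in control animals. The early life values all lay below control, a difference of -0.24 ± 0.11 (adjusted p = 0.315). Of the accessory subunits 15 of 23 lay above control in early life animals, at a median of 0.096. The members of largest spread within groups were Ndufa11, whose control animals read 11.61, 11.92, 11.34 and 11.86, and Ndufb8, whose early life animals read 15.08, 15.23, 14.90 and 14.40.

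Complex II, succinate dehydrogenase, also belongs to the citric acid cycle. Sdha, its flavoprotein, was measured in 2 animals of each group, at 13.42 and 13.45 in control, 13.52 and 13.78 in early life and 13.33 and 13.52 in peripubertal animals. The early life pair lay above the control pair and met the peripubertal pair at 13.52. Early life minus control was 0.22 ± 0.21 (adjusted p = 0.642). With marked spots kept it was 0.034, and early life minus peripubertal was -0.20. Sdhb, the iron-sulfur subunit, differed by -0.05 ± 0.15 (n = 2 and 4) in early life minus control and 0.04 ± 0.15 (n = 2 and 4) in peripubertal minus control. The membrane anchors Sdhc and Sdhd differed by -0.12 ± 0.16 and -0.19 ± 0.12 in peripubertal minus control (adjusted p = 1.00 for both), which median centring turned to 0.10 and 0.036. In early life minus control they differed by -0.01 ± 0.16 and -0.06 ± 0.15 (n = 2 and 4).

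Complex III passes electrons from ubiquinol to cytochrome c. In early life 7 of its 8 genes were higher than in control. Uqcrb, the ubiquinone-binding protein, was 14.13 and 14.11 in early life animals 1 and 2 and 13.74, 13.69, 13.69 and 13.91 in control. The difference was 0.37 ± 0.15 (adjusted p = 0.286). With marked spots kept, early life animals 3 and 4 read 13.67 and 13.61, and the difference was 0.13. In peripubertal animals Uqcrb read 13.80, 13.93, 13.90 and 14.11, which overlapped with control. Uqcrq, a small structural subunit, was 15.05, 15.42, 14.83 and 14.84 in early life, 14.75, 14.74, 14.57 and 14.92 in control and 14.47, 14.63, 14.76 and 14.85 in peripubertal animals. Its early life values overlapped with both groups, and the differences were 0.29 ± 0.16 from control (adjusted p = 0.374) and 0.36 ± 0.16 from peripubertal animals (adjusted p = 0.244). Uqcrfs1, the Rieske iron-sulfur protein, was 0.27 ± 0.14 higher in early life than in peripubertal animals (adjusted p = 0.317). Uqcrc1, a core protein, read 12.71, 12.62, 12.82 and 12.68 in early life and 13.07, 12.88, 12.86 and 13.15 in peripubertal animals. Here the early life values all lay below, a difference of -0.28 ± 0.15 (adjusted p = 0.326). Uqcr10, another small subunit, spread most within groups in this complex, with control values of 14.07, 14.03, 13.70 and 14.15, and Uqcrq came next. All 8 genes of complex III were brighter in Cy5 than in Cy3, by a median of 0.096, a dye difference that the fit removes.

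Complex IV, cytochrome c oxidase, held the smallest p-values of the members in both comparisons with early life, while in peripubertal against control that was Ndufs4 of complex I. Cox5b, a nuclear-encoded subunit present in all tissues, gave 14.84 and 14.83 in early life animals 1 and 2, while its spot was marked on the array of animals 3 and 4. Control animals read 14.34, 14.17, 14.34 and 14.21 and peripubertal animals 14.32, 14.32, 14.37 and 14.26. The early life pair, from 1 array, lay above all 8 others. Its difference was 0.58 ± 0.13 from control (adjusted p = 0.149) and 0.52 ± 0.13 from peripubertal animals (adjusted p = 0.117). With marked spots kept, early life animals 3 and 4 read 14.26 and 14.43, and the differences from control and peripubertal animals were 0.33 and 0.28. The second Cox5b feature, printed above with its single differing base in the overlap, gave 13.39, 13.62, 13.28 and 13.62 in early life and 13.66, 13.66, 13.54 and 13.36 in control animals, with differences of -0.079 and -0.10 in the same comparisons. In early life animals 1 and 2, which both features measured, the first lay above all control values and the second did not.

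The isoforms of complex IV found mainly in heart and skeletal muscle are Cox6a2, Cox7a1 and Cox8b. Cox6a2 was 8.05, 7.96, 7.67 and 7.49 in early life, 7.48, 7.56, 7.64 and 7.50 in control and 7.15, 7.06, 7.44 and 7.23 in peripubertal animals. All peripubertal values lay below all others. The difference between the deficient groups was 0.57 ± 0.15 (adjusted p = 0.115), and peripubertal minus control was -0.32 ± 0.15 (adjusted p = 1.00). Cox6a2 was well above background in 4 control, 3 early life and 3 peripubertal channels, so it was read near the limit of detection. Cox7a1 ran the other way, at 10.01, 10.07, 10.44 and 9.92 in peripubertal and 9.65, 9.71, 9.58 and 9.84 in control animals without overlap, a difference of 0.42 ± 0.19 (adjusted p = 1.00). Cox8b was well above background in 2, 1 and 1 channels of control, early life and peripubertal animals and likewise passed the filter only with its control channels, so no fold is drawn from it. Of 13 skeletal muscle markers 7 were kept, and Ckm, Myh1, Tnnt3, Mylpf, Myoz1 and Actn3 were not. The mean deviation of the kept ones ran from -0.12 to 0.074 in control, -0.090 to 0.29 in early life and -0.058 to 0.026 in peripubertal animals. Of 8 heart and slow muscle markers 5 were kept, without Tnnt2, Tnni1 and Actc1, and their mean deviation ran from -0.23 to 0.11 in control, -0.13 to 0.48 in early life and -0.37 to 0.27 in peripubertal animals. The part of either list in these values was not tested.

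The testis isoforms Cox6b2 and Cox7b2 were measured as well. Cox6b2 was 11.66, 11.39, 10.70 and 10.33 in control, 11.79, 11.20, 11.38 and 11.53 in early life and 11.58, 11.37, 11.55 and 11.19 in peripubertal animals. Both animals of 1 control array lay below the 10 others, and neither difference from control passed (0.45 ± 0.26 and 0.40 ± 0.26, adjusted p = 0.397 and 1.00). Cox7b2, which was well above background in 4 control, 1 early life and 2 peripubertal channels, was 6.87, 7.40, 7.15 and 7.31 in peripubertal and 7.24, 7.51, 8.07 and 7.87 in control animals. It passed the filter on dim features only with its control channels, so its difference of -0.49 ± 0.22 from control is a description. Of 6 testis and germ cell markers 4 were kept, without Ddx4 and Dazl, with mean deviations from -0.25 to 0.022 in control, -0.27 to 0.63 in early life and -0.33 to -0.011 in peripubertal animals, and their part was not tested.

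Of the other subunits of complex IV, Cox4i1, the ubiquitous form of subunit 4, was measured on no early life array and differed by 0.05 ± 0.16 (n = 2 and 4) in peripubertal minus control. Cox4i2, its lung and hypoxia-linked form, was 9.26, 9.53, 9.13 and 9.53 in early life and 9.21, 9.26, 8.90 and 9.04 in control animals. The groups overlapped and differed by 0.26 ± 0.13 (adjusted p = 0.33). Cox5a, the partner of Cox5b in the assembled enzyme, gave 0.13 ± 0.19 (n = 2 and 4) in peripubertal minus control, and its early life minus control estimate lay within 0.01 of 0. Ndufa4 had the largest spread of any subunit gene. Peripubertal animal 1 read 11.77 where the other 3 of its group read 13.44, 13.43 and 13.70, control animals 13.34, 13.65, 13.28 and 13.73 and the 2 early life animals 13.98 and 13.83. Its difference of 0.82 ± 0.49 (n = 2 and 4) between the deficient groups includes that peripubertal animal (adjusted p = 0.377). With marked spots kept, early life animals 3 and 4 read 13.33 and 13.32, and the difference was 0.53. Cox6a1, Cox7a2, Cox7a2l (also known as a supercomplex factor), Cox7b and Cox8a, the widely expressed partners of the tissue isoforms, differed by -0.02 ± 0.16, 0.22 ± 0.17 (n = 2 and 4), 0.12 ± 0.18 (n = 2 and 4), 0.05 ± 0.16 and 0.06 ± 0.11 in peripubertal minus control.

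Log2 ratios between partner isoforms within each sample, which show unequal change and not abundance, are given as values with no test, since with 2 to 4 values per group no outcome of an exact permutation test could have passed the threshold after adjustment over the 17 of 21 comparisons that could be made. The Cox6a2 to Cox6a1 ratio was 0.59 in early life minus peripubertal animals, with SDs of 0.16 and 0.46 (n = 4 each), and 0.28 in early life minus control animals, where the control SD was 0.20. The ratio Cox6b2 minus Cox6b1 varied most within groups, with an SD of 0.56 in control and 0.54 in peripubertal animals.

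Complex V makes ATP with its catalytic head, to which Atp5a1 and Atp5b belong. Atp5b, the catalytic subunit, was 15.73, 15.68, 15.53 and 16.02 in control, 15.73, 15.90, 15.58 and 15.56 in early life and 15.80, 15.83, 15.55 and 15.69 in peripubertal animals. The groups overlapped, with differences of -0.05 ± 0.15 and -0.02 ± 0.15 from control. Atp5a1 had no peripubertal value and differed by -0.14 ± 0.18 (n = 2 and 4) in early life minus control. Atp5c1, the central stalk, was 15.22, 14.98, 14.89 and 14.61 in early life and 14.63, 14.56, 14.51 and 14.63 in control animals, overlapping at the lower end, with a difference of 0.34 ± 0.15 (adjusted p = 0.303). Atp5h, of the peripheral stalk, was 15.84, 15.75, 15.26 and 15.28 in early life, where animals 1 and 2 stood above the rest, and 15.10, 15.18, 15.30 and 15.15 in peripubertal animals. Its difference was 0.35 ± 0.16 (adjusted p = 0.248). Atp5o, which joins stalk and head, was the lowest in early life, with 12.47 and 12.46 in animals 1 and 2. Peripubertal animals read 12.64, 12.77, 12.81 and 13.02, a difference of -0.34 ± 0.19 (adjusted p = 0.332). With marked spots kept, early life animals 3 and 4 read 12.70 and 12.61, and the difference was -0.25. Atp5l, a membrane subunit, and Atp5d, of the central stalk, had the smallest p-values of complex V in peripubertal minus control, at -0.23 ± 0.14 and 0.12 ± 0.13 (adjusted p = 1.00 for both). Atp5k, another membrane subunit, spread widely in control, at 14.39, 14.31, 13.73 and 14.45. These values are from the feature that the file places on Y. It differed by 0.035 in early life minus control and 0.013 in early life minus peripubertal. A dimmer kept feature of Atp5k on chromosome 5 gave -0.51 and -0.62 in the same comparisons.

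The subunit c genes Atp5g1, Atp5g2 and Atp5g3 encode the same mature rotor protein. Their differences in early life minus control were -0.24 ± 0.15, 0.21 ± 0.18 (n = 2 and 4) and 0.07 ± 0.17 (n = 4 and 2). The second Atp5g1 feature read 12.78, 13.07, 12.69 and 13.22 in early life and 12.30, 12.46, 12.43 and 12.27 in peripubertal animals, without overlap, where the first read 15.79, 16.02, 15.81 and 15.69 and 15.98, 16.05, 15.74 and 16.21. The 2 features therefore gave differences of 0.57 and -0.17 for the same gene in early life minus peripubertal, and 0.35 and -0.24 in early life minus control. The run in capitals in the first feature is the stretch it shares with features of other genes.

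**Figure D4:**
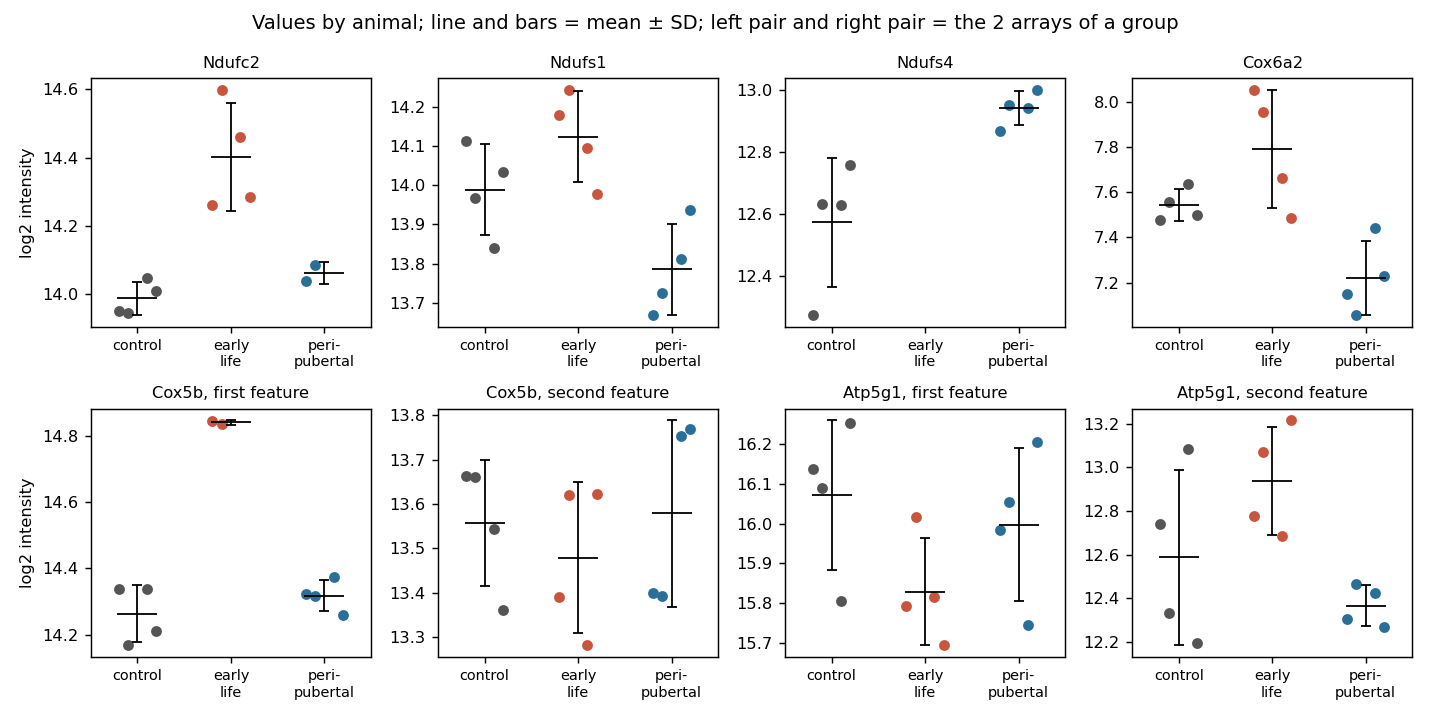
Log2 intensity by animal for Ndufc2, Ndufs1, Ndufs4, Cox6a2 and both features of Cox5b and Atp5g1; lines and bars are mean and SD, and the left and right pair of a group are its 2 arrays. The first Cox5b feature reads 14.84 and 14.83 in early life animals 1 and 2, above all others, and the second does not separate the groups.

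Other features of a gene often gave another sign. Between the feature that stood for a gene and its other kept features, 15 of 29 pairs had the same sign in early life minus control, 21 of 36 in peripubertal minus control and 19 of 28 in early life minus peripubertal. The median gap between the log2 differences of a pair was 0.20, 0.094 and 0.20, and the largest was 0.66 for Cox5b, 0.58 for Cox7a2l and 0.74 for Atp5g1. The 2 features of Ndufb11 shown here share 55 of 60 bases. The first, without early life animals 3 and 4, differed from control by 0.34 ± 0.15. The second read 14.62 and 14.53 in animals 1 and 2 and 14.23 and 14.20 in animals 3 and 4, and its difference was 0.015. In animals 1 and 2 the first feature read 14.84 and 14.65, above the second in both.

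**Figure D5:**
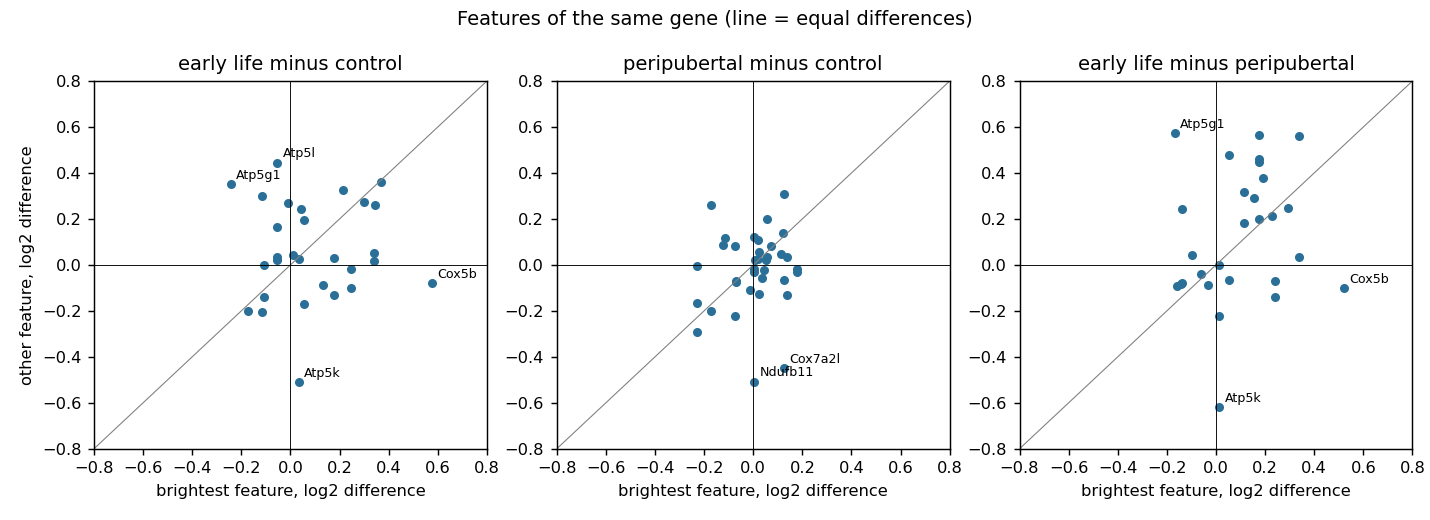
Log2 difference of the brightest feature of a gene (x axis) against that of each other kept feature (y axis) in the 3 comparisons; the line marks equal values. Same signs were seen in 15 of 29, 21 of 36 and 19 of 28 pairs.

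Groups that did not overlap were less frequent among the members than among all genes, or close to them, except in the higher direction of peripubertal against control; these shares were not tested. With all 8 values present, 2 of 38 members (Ndufa2 and Ndufc2) lay wholly higher in early life than in control, beside 6.39% of all genes, and 1 (Ndufv1) wholly lower, beside 5.59%. In peripubertal against control 2 of 49 (4.08%, Cox7a1 and Ndufs4) lay higher, beside 2.52%, and 2 (Cox6a2 and Ndufb5) lower, beside 4.95%. Between the deficient groups 2 of 32 (6.25%, Cox6a2 and Ndufs1) lay higher in early life, beside 10.3%, and 1 (Uqcrc1) lower, beside 7.54%. Ndufa2 and Ndufb5 were named after their values were seen.

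The 13 subunits encoded by the mitochondrial genome, all of which the array measured, had per-animal medians over a wider range than the nuclear set. Early life animals had 11 of 13 above control, at a median of 0.35, in peripubertal animals 12 of 13 were lower, with a median of -0.25, and 12 of 13 were higher in early life than in peripubertal animals, with a median of 0.57, but none passed the test. These genes split by array too. With all 4 values of a group present, 7 of 7 were higher on the array of animals 1 and 2 in early life. In peripubertal samples 1 of 12 were higher there, at a median gap of -0.64, and in control 2 of 12. Over the 6 with all 12 values the median deviation was 0.70 in control animal 3 and -0.52 in control animal 4, which shared an array. Peripubertal animals 1 to 4 lay at -0.87, -0.23, 0.027 and -0.082, and early life animals between 0.026 and 0.39. For the nuclear subunits control animal 3 was the lowest of its group at -0.18. mt-Nd3, a membrane subunit of complex I, read 15.19, 15.58, 14.20 and 14.64 in early life and 12.77, 13.44, 14.22 and 13.91 in peripubertal animals, overlapping at 1 value, with a difference of 1.32 ± 0.51 (adjusted p = 0.204).

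The other lists of the pathway held no gene past the threshold either. Of 42 testable assembly factors early life animals had 16 above control and 26 below, at a median of -0.067, and 15 above peripubertal animals and 27 below, at a median of -0.10. Uqcc2, an assembly factor of complex III, differed by -0.75 ± 0.17 (n = 2 and 4) and -0.80 ± 0.17 (n = 2 and 4) in those comparisons (adjusted p = 0.146 and 0.095). Of 11 other parts of the chain 8 were higher in early life than in control, among them Atpif1, the inhibitor of the ATP synthase, by 0.52 ± 0.17 (adjusted p = 0.204). Of 19 regulators of mitochondrial genes 10 were higher and 9 lower in both comparisons with control. Citric acid cycle genes were higher in 9 of 13 in early life and in 10 of 13 in peripubertal animals, and genes of the outer membrane, import and carriers lower in 8 of 12 and 11 of 13. Of the 5 uncoupling proteins, Ucp1, which marks brown fat, read 6.70, 6.70, 6.70 and 6.53 in early life, in no channel well above background, and 9.34, 8.75, 7.55 and 9.24 in control and 8.80, 8.60, 8.32 and 9.80 in peripubertal animals. All early life values lay below all others, and it was well above background in 3 of 4 control and 4 of 4 peripubertal channels. Ucp1 passed the filter on dim features only with its control and peripubertal channels, so its differences are a description. Measured log2 means were 8.72 in control and 8.88 in peripubertal animals against 6.66 in early life. The control and peripubertal means lay 2.56-fold and 2.86-fold above the mean of the lowest signals well above background in the early life channels. Control animal 3, at 7.55, lay below the lowest such signal of early life animal 3, at 7.76. Of 7 brown fat and adipocyte markers 4 were kept, and Adipoq, Plin1 and Cfd were not. Ucp1 is itself 1 of the 4, so their mean is not a reading apart from it. Their mean deviation was -0.70 to -0.17 in early life, 0.022 to 0.58 in control and 0.15 to 0.57 in peripubertal animals, and what part tissue around the gland has in the subunit values was not tested.

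The promoters of 72 of the 81 genes were found in RefSeq's table (GRCm38.p6, 250 bases before to 50 after the start). Short motifs of factors known for these genes were searched on both strands. The NRF1 letters GCGCATGC occurred in 13.9% of the members' promoters and 2.71% of all 32851, the ETS letters CCGGAAG in 22.2% and 8.86%, the YY1 letters AAGATGGC in 13.9% and 2.75%, and the ERR letters AAGGTCA in 11.1% and 4.72%. At least 1 of these motifs was found in 34 of the 72 (47.2%), beside 17.6% of all promoters. The windows of 2 genes are shown with an NRF1 match in capitals, on the gene's strand in Cox6a1, 162 bases before the start, and on the opposite strand in Sdhb, 54 bases before it. In Cox6a1 a match on the opposite strand overlaps the one shown. A match is a description of the letters only.
Cox6a1, chr5:115349097-115349136, GRCm38.p6, minus strand: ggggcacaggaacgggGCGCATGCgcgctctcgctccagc
Sdhb, chr4:140961201-140961240, GRCm38.p6, plus strand: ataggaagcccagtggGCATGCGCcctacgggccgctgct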

How the data were processed

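Per the labels, total pituitary RNA of 12 mice was hybridised to 6 Agilent 2-colour arrays. The authors deposited the scanner output, whose values are linear intensities of 44397 features per array, 1377 of them controls, which per the file headers came from Feature Extraction (Agilent) 11.0.1.1, with feature positions in mm9. They also deposited a value table whose log2 values are centred on a median of 0; its scaling steps are not given in the sources used here, and its 4 control columns were not used. Mean signals were background-corrected (normexp, offset 50), scaled by loess within arrays and Aquantile between them, spots marked as outliers were then removed, and spots of one feature averaged. The brightest feature well above background in at least 4 of 12 channels stood for a gene. limma 3.58.1 in R 4.3.3 fitted group and dye with the array as a random block (correlation 0.342, 8 residual degrees of freedom), and calls were made at an adjusted p of 0.05 (Benjamini-Hochberg). The script was tested on simulated data. Gene names were matched to RefSeq by accession for 27234 features, by symbol for 3576 and by synonym for 565, and 8054 kept the file's name.

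Members and gene lists were chosen with earlier results of these data known. Genes named are, per complex and comparison, the 2 of smallest p, the core subunits, the isoform families and the 2 of largest spread within groups. A gene that this rule names is not reported here. The shared replicate numbers do not pair animals: correlations of deviations ran from -0.285 to 0.0595. Alternatives changed offset, signal, scaling, filter, feature choice, outlier marks, array handling and samples.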

Additional observations from a re-analysis of the deposited data

Results flagged for a closer look

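Among 119 groups of 4 values, 2 held a sample far from the other 3, where chance gives about 1 in 20. The groups were values of named subunit genes and sample medians over the complexes, all subunit genes and all genes. Cox7a2l in early life animal 1 read 16.08 while the other 3 lay between 15.48 and 15.56, a gap of 0.877 of the whole range. Ndufa4 in peripubertal animal 1 read 11.77 while the others lay between 13.43 and 13.70, a gap of 0.858 of the range. The cause was not tested for either.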

How the results depend on the processing

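Slide and scan date confound every comparison with control, a pair of animals is missing for most members, and few arrays limit precision. No subunit gene was called in peripubertal against control under any alternative. In early life against control the mean of kept features called 3 (Ndufb5, Ndufv3 and Uqcrq), and the same 3 against peripubertal animals. That mean is taken over whichever features have a value. In early life the brightest feature of Ndufb5 and of Ndufv3 and the dimmer feature of Uqcrq had none. Their means therefore cover unlike features between groups, and no direction is drawn from them. Taken singly, the other kept features differed from control by 0.095 and 0.43 for Ndufv3 and -0.56 and 0.36 for Ndufb5. Removing marks before scaling called 15 and 1, with member medians of 0.40 and 0.28 where all genes moved to 0.31 and 0.19. Median centring moved the member medians against control to 0.38 and 0.20, where all genes moved to 0.17 and 0.14. Leaving out a sample or array gave 0 to 4 and 0 to 6 members called and medians from -0.033 to 0.22 and -0.032 to 0.16, with the upper ends without the array of early life animals 3 and 4. The cause of the shifts on leaving out a sample or array was not tested.

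All genes called, main 18, 4 and 24 in early life against control, peripubertal against control and early life against peripubertal, moved as follows. Leaving out samples or arrays gave 6 to 1931, 0 to 36 and 6 to 2377. An offset of 16 gave 0 for peripubertal against control and 56 for the deficient groups, processed signals 35 and 0 for the comparisons with control, median centring 4, 0 and 6, features detected in all 12 channels 0, 0 and 1, and the mean of features 125, 20 and 151. Quantile scaling and no filter gave 0 for peripubertal against control, keeping outliers 0 and 7 and array means 0 and 39 for the last pair of comparisons, removal of marks before scaling 3058, 0 and 315, and the fit on only the 2 groups compared 11, 10 and 66. The replicate block gave 10, 0 and 6 and called no member. The value table gave 76 between the deficient groups, with a member median of -0.098.

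With each difference of a named gene counted once per alternative, 857 kept direction and side of the threshold, 16 passed it and 21 reversed. Leaving out samples of a group outside a comparison did not change that comparison's median over all genes. Such alternatives are among the 857, so the counts do not measure robustness. Median centring turned Sdhd (0.27) in early life against control and Ndufs1 (0.019), Sdhd (0.036) and Sdhc (0.10) in peripubertal against control. The mean of features turned Ndufb11 (-0.49) and Cox5b (-0.099) in early life against control, Atp5l (0.0027) in peripubertal against control, and Ndufb11 (-0.31) and Cox5b (-0.14) in early life against peripubertal. These means of features can likewise cover unlike features between groups, so no direction is drawn from them. Taken singly, the kept Ndufb11 features differed by 0.34, 0.015 and 0.051 from control and 0.34, 0.034 and 0.56 from peripubertal animals. Every Atp5l feature with an estimate was lower in peripubertal than in control animals. Keeping outliers turned Sdha (-0.20) in early life against peripubertal. Removal of marks before scaling turned Sdhd (0.29) in early life against control and Sdhc (0.022) in peripubertal against control. The value table, whose columns carry the other deficient group's channels, turned Ndufs1 (-0.42), Ndufb11 (-0.15), Sdhd (-0.16), Uqcrq (-0.43), Uqcrfs1 (-0.33), Cox6a2 (-1.09), Cox5b (-0.35), Atp5h (-0.43) and Atp5o (0.18) in early life against peripubertal.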
